A study of Mus musculus with 17 samples.

Results

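The 10 genes described here mark alveolar macrophages. Pparg, Bhlhe41, Siglecf, Marco, Car4, Fabp4, Ear1, Ear2, Krt79 and Plet1 were followed through tumor cells and macrophages of mouse lung tumors. They were taken by gene symbol, and 10 of 10 had a row in both macrophage tables, which listed 13545 and 13407 genes. The tumor cell table listed 16410 genes and held 9 of the 10, without Ear1. In all, 17555 gene names occurred in the 3 tables.

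Alveolar macrophages are the resident phagocytes of the airspace and clear surfactant, the lipid film of the lung. Their program is set up by GM-CSF and TGF-beta, which induce the lipid-sensing nuclear receptor PPARg, and it is kept by the repressors BHLHE40 and BHLHE41. Macrophages that arise from recruited blood monocytes usually carry these genes at a lower level, although they can acquire them with time in the alveolus.

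KL mice carried KrasLSL-G12D/+ and Lkb1fl/fl, and KLG4 mice carried Gpx4m/m in addition. In this Gpx4 allele a STOP cassette is removed by Cre, a CAG promoter then drives a tamoxifen-inducible Dre recombinase, and Dre deletes the rox-flanked part of Gpx4, by design in tumor cells. Both genotypes received intranasal Ad-Cre and tamoxifen, and the cells were isolated by FACS from tumor-bearing lungs 10 weeks after Ad-Cre, so the KL groups share every agent with the KLG4 groups. Tumor cells, TRMs and MDMs (read here as tissue-resident and monocyte-derived macrophages, names the labels do not spell out) gave 2 libraries each per genotype, 12 libraries of the 17 samples of the series. The other 5 samples were not analysed here. The tumor cell RNA is described as from 2 mice per genotype, although each of the 4 tumor cell libraries held both Xist (4.17 to 6.18 RPKM) and the Y-linked Eif2s3y (7.27 to 9.26 RPKM). It is therefore unclear whether each of those libraries came from 1 animal. For TRMs and MDMs the sources used here do not say whether a library was made from 1 animal or from several. In all of these populations the p-values thus measure the spread between libraries, which may be technical. The gates that separated TRMs from MDMs are not given in the sources used here. Because an antibody to Siglec-F was among those of the study, Siglecf may have been used in the sort.

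Depth was recovered from the RPKM values and ran from 9.14 to 36.6 megareads per library. Gpx4 was at 56.4 and 61.9 RPKM in KLG4 tumor cells and at 94.95 and 76.8 RPKM in KL tumor cells. KLG4 TRMs also held less of it (53.8 and 57.0 RPKM) than KL TRMs (89.8 and 88.2 RPKM), whereas KLG4 MDMs held more (93.6 and 97.7 RPKM) than KL MDMs (44.9 and 71.3 RPKM). Mitochondrial genes took 13.2% and 9.17% of reads in KL TRMs but 1.43% and 2.40% in KLG4 TRMs, and the median log2 fold change of all genes tested in TRMs was 0.38. Xist, a marker of female cells, stood at 18.3 and 20.2 RPKM in KLG4 TRMs but at 0.257 and 0.501 RPKM in KL TRMs, so genotype and sex cannot be told apart in TRMs. One MDM library stood apart. The KL MDM replicate 2 had Xist at 0.839 RPKM against 21.8 RPKM in replicate 1, C1qa at 92.7 against 16.0 RPKM, Sftpc at 173 against 71.7 RPKM and S100a9 at 9379 against 21106 RPKM. The KLG4 tumor cell replicates were the closest pair, with a mean chi-square of 3.28 per gene against 28.8 to 131 in the other 5 groups, so no pair agreed within sampling noise.

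Ear1 and Ear2 are near-identical copies whose reads the counting may have split unevenly, so their sequences are shown. Both encode eosinophil-associated ribonucleases of the RNase A superfamily. Ear1 lies on chromosome 14 at 43818765-43875517 on the minus strand and Ear2 at 44102654-44103534 on the plus strand (GRCm38). Their coding sequences differed at 19 of 465 aligned bases, an identity of 95.9%. The first 240 coding bases of each are printed 5′ to 3′ from GENCODE M21, and capitals mark the 9 bases that differ between them.
Ear1 coding, chr14:43819170-43819409, minus strand: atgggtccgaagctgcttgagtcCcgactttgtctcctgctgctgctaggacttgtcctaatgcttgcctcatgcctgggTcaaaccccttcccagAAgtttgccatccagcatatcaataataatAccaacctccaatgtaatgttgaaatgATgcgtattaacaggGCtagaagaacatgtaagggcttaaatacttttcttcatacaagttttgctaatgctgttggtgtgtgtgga
Ear2 coding, chr14:44102887-44103126, plus strand: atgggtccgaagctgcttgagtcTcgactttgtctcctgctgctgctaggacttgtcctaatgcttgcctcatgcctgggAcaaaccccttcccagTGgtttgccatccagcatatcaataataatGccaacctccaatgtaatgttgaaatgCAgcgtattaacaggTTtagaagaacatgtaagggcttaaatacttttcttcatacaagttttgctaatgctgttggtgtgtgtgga
The bases before the start site were closer still. Over 248 bases upstream of the RefSeq start (GRCm38.p6) the windows differed at 2 bases, an identity of 99.2%, and capitals mark those 2.
Ear1 upstream, chr14:43819642-43819889, minus strand: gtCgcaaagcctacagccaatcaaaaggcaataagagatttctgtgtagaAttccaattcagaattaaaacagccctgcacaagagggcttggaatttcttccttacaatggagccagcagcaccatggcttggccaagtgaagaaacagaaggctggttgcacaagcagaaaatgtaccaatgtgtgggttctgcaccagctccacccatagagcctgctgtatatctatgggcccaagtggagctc
Ear2 upstream, chr14:44102406-44102653, plus strand: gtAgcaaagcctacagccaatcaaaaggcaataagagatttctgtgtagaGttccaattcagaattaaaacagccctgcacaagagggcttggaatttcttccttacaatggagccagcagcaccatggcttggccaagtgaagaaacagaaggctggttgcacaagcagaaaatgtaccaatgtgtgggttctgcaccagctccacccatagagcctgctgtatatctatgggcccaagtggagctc
Nearly the same letters stood before both genes, while the RPKM of Ear2 was far above that of Ear1 in each macrophage library in the values that follow. Ear2 transcripts were also 97.0% identical over 466 bases to the pseudogene Ear-ps2, listed at 5.29 to 8.01 RPKM in TRMs, 94.5% identical to Ear10, which had no row, and 88.7% identical to Ear6. Ear1 was 98.1% identical over 462 bases to the pseudogene Ear-ps9, which had no row.

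On GRCm38 the other members lie at chr6:115360951-115490399 (Pparg, plus), chr6:145858243-145865558 (Bhlhe41, minus), chr7:43351341-43359531 (Siglecf, plus), chr1:120474538-120505024 (Marco, minus), chr11:84957786-84966044 (Car4, plus), chr3:10204088-10208576 (Fabp4, minus), chr15:101929332-101940324 (Krt79, minus) and chr9:50494525-50505482 (Plet1, plus), and each is annotated as protein-coding. Exons of Bhlhe41 and Plet1 overlap antisense genes, Gm43909 over 1280 bases and Plet1os over 261 bases. The library kit did not keep strand, so reads within these shared bases, out of exon lengths of 6720 bases for Bhlhe41 and 1947 bases for Plet1, cannot be told apart. Both antisense genes followed their partner, with Plet1os at 66.0 to 78.4 RPKM in the 4 TRM libraries and 5.06 to 14.6 RPKM in the 4 MDM libraries, and Gm43909 at 6.88 to 25.1 and 1.78 to 5.75 RPKM. Fabp4 was scaled to its whole gene span of 4489 bases, introns included, which lowers its RPKM relative to the other members.

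In TRMs the 10 genes covered a wide range of levels. Ear2 led in KL TRMs with 4604 ± 255 RPKM (SD, n = 2) and ranked 17 among 13545 genes, followed by Car4 with 460.4 ± 33.5 RPKM. Marco (146 ± 15.1 RPKM) came next and did not overlap Plet1 (118 ± 2.92 RPKM), whereas Plet1 overlapped Ear1 (109 ± 12.6 RPKM). Fabp4 (35.7 ± 14.7 RPKM) and Pparg (32.7 ± 2.85 RPKM) overlapped as well. Siglecf stood at 21.5 ± 2.27 RPKM, and Bhlhe41 (6.94 ± 2.66 RPKM) and Krt79 (6.45 ± 0.120 RPKM) were lowest and overlapped. All values are per length. In MDMs Ear2 again led, with 882 ± 506 RPKM in KL and 416 ± 57.7 RPKM in KLG4, and Krt79 was lowest in both genotypes. The plot of levels by library shows these values together.

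**Figure D1:**
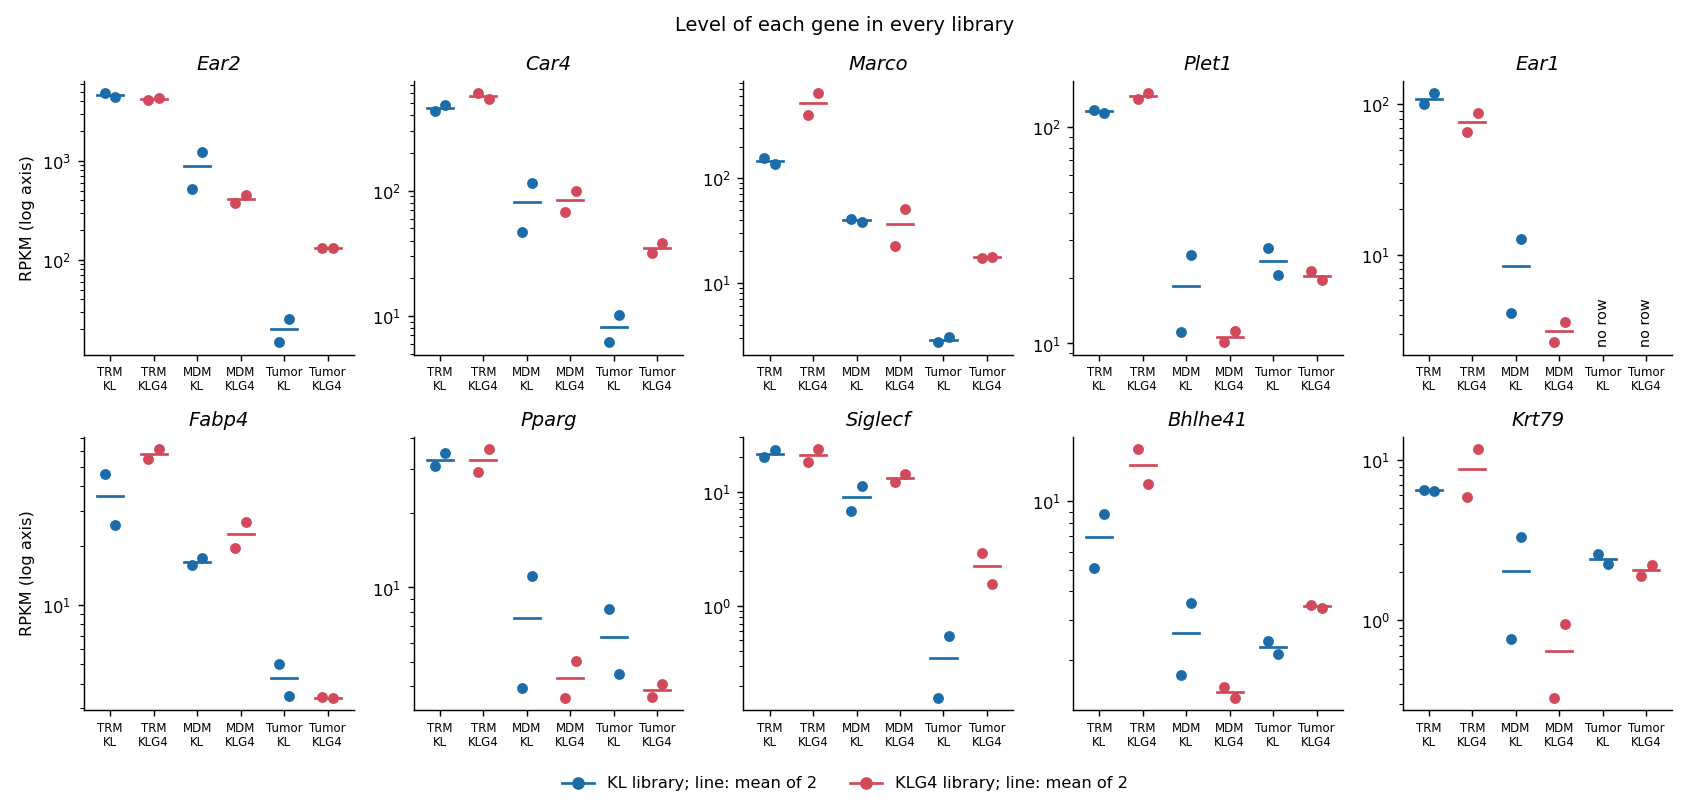
RPKM on a log axis for each of the 10 genes, with 1 panel per gene, in TRMs, MDMs and tumor cells of KL and KLG4 mice. Points are libraries and lines are the means of 2 libraries. Both TRM points lie above both MDM points of the same genotype for 10 of 10 genes (33.1% of all genes tested in KL and 54.5% in KLG4), and Ear1 has no row in the tumor cell table.

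The first comparison described how far the alveolar program separates TRMs from MDMs within a genotype. The genes were chosen as alveolar macrophage markers with earlier results of these data known, so the direction was not an open question. The TRM and MDM values come from separately made tables of RPKM. In KL, 9 of 10 genes were higher in TRMs, where 15.3% of the 11060 genes tested were higher. In KLG4 9 of 10 were higher against 35.7% of all genes, among them Krt79, which passed the filter through the TRM libraries. These backgrounds of 1688 and 3944 genes became 2023 and 2696 under TMM scaling. They became 3375 and 4088 when rescaled to reads outside mitochondrial genes and their nuclear copies. Both TRM libraries exceeded both MDM libraries for 10 of 10 genes in KL and for 10 of 10 in KLG4, as they did for 33.1% and 54.5% of all genes tested. The median log2 fold change over the 10 genes was 2.10 in KL and 3.29 in KLG4, beside 0.0037 and 0.42 for all genes tested. MDMs kept between 7.78% (Ear1) and 46.5% (Fabp4) of the TRM mean in KL, and between 4.07% (Ear1) and 63.1% (Siglecf) in KLG4.

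Among the transcription factors, Pparg, the nuclear receptor that drives lipid handling in these cells, was at 30.7 and 34.7 RPKM in KL TRMs and at 3.94 and 11.2 RPKM in KL MDMs. In KLG4 it was at 29.2 and 36.0 RPKM in TRMs and at 3.60 and 5.07 RPKM in MDMs. No MDM library reached the lowest TRM library, and the KL MDM replicate 2 was the highest of the 4 MDM libraries. The log2 fold change of TRMs over MDMs was 2.28 (SE 0.44, adjusted p = 0.0066) in KL and 2.90 (SE 0.44, adjusted p = 0.0021) in KLG4. Bhlhe41, a basic helix-loop-helix repressor needed for alveolar macrophage identity, was at 5.06 and 8.82 RPKM in KL TRMs and 17.0 and 11.9 RPKM in KLG4 TRMs. MDM libraries held 1.71 and 3.56 RPKM (KL) and 1.51 and 1.36 RPKM (KLG4), below every TRM library. The log2 fold change was 3.23 (SE 0.41, adjusted p = 0.0012) in KLG4 and 1.40 (SE 0.41, adjusted p = 0.033) in KL. The KL call was lost in 6 of the 8 fits that left out 1 library, with values of 0.89 to 1.40 in them.

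Of the surface receptors, Marco, a scavenger receptor for inhaled particles and bacteria, was at 156 and 135 RPKM in KL TRMs and at 41.1 and 38.5 RPKM in KL MDMs. In KLG4 it was at 396 and 641 RPKM in TRMs and at 22.4 and 50.6 RPKM in MDMs. TRMs were higher by a log2 fold change of 1.87 (SE 0.38, adjusted p = 0.0084) in KL and 3.90 (SE 0.38, adjusted p = 4.0e-04) in KLG4, and the KL call was lost without KL TRM replicate 1 (1.76, adjusted p = 0.054). Siglecf, a sialic acid-binding lectin of alveolar macrophages and eosinophils, separated the populations least in KLG4. It was at 19.9 and 23.1 RPKM in KL TRMs against 6.80 and 11.1 RPKM in KL MDMs, and at 18.1 and 23.6 RPKM in KLG4 TRMs against 12.045 and 14.3 RPKM in KLG4 MDMs. Its log2 fold change was 1.29 (SE 0.28, adjusted p = 0.011) in KL and 0.65 (SE 0.28, adjusted p = 0.085) in KLG4, where the test was not passed. The KL call was lost without KL TRM replicate 2 (1.19, adjusted p = 0.055), and the KLG4 difference passed without either KL MDM library (adjusted p = 0.026 in both fits).

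Car4, a membrane-anchored carbonic anhydrase that lung capillary cells also make, was at 437 and 484 RPKM in KL TRMs and at 46.7 and 115 RPKM in KL MDMs. In KLG4 it was at 597 and 541 RPKM in TRMs and at 67.3 and 100.1 RPKM in MDMs. The log2 fold changes were close in both genotypes, 2.65 (SE 0.39, adjusted p = 0.0021) in KL and 2.79 (SE 0.39, adjusted p = 0.0016) in KLG4. Fabp4, a fatty acid carrier of macrophages, adipocytes and capillary cells, was at 46.1 and 25.3 RPKM in KL TRMs against 16.0 and 17.2 RPKM in KL MDMs. The KLG4 libraries held 55.1 and 61.6 RPKM in TRMs and 19.3 and 26.4 RPKM in MDMs. TRMs were higher by 1.04 (SE 0.30, adjusted p = 0.030) in KL and 1.36 (SE 0.30, adjusted p = 0.0078) in KLG4, and the KL call was lost in 4 of the 8 fits without 1 library (0.61 to 1.04). The KLG4 call was lost under TMM scaling (0.94, adjusted p = 0.053), without KLG4 TRM replicate 2 (1.28) and without KLG4 MDM replicate 1 (1.14). Of 4 tested capillary endothelial markers, 0 were higher in TRMs in either genotype, while 2 were lower in KL and 1 in KLG4. Of 8 adipocyte markers 1 had a row in each macrophage table, Plin1 at 0.476 to 2.35 RPKM in TRMs and Retn at 1.65 to 3.04 RPKM in MDMs.

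Of the ribonuclease genes, Ear1 had the largest log2 fold change of the 10 genes in both genotypes. Ear1 was at 100.01 and 118 RPKM in KL TRMs and 65.4 and 87.0 RPKM in KLG4 TRMs, whereas the MDM libraries held 4.13 and 12.8 RPKM in KL and 2.63 and 3.58 RPKM in KLG4. Its log2 fold change was 3.88 (SE 0.47, adjusted p = 8.2e-04) in KL and 4.58 (SE 0.47, adjusted p = 4.9e-04) in KLG4. Ear2 was at 4785 and 4423 RPKM in KL TRMs and 4093 and 4299 RPKM in KLG4 TRMs, against 524 and 1239 RPKM in KL MDMs and 375 and 456 RPKM in KLG4 MDMs. It differed by 2.51 (SE 0.37, adjusted p = 0.0020) in KL and 3.34 (SE 0.37, adjusted p = 6.6e-04) in KLG4. The order of these genes against each other rests on how reads of near-identical copies were assigned. Eosinophils use the same gene family. Of 8 eosinophil markers 2 had a row in TRMs and 5 in MDMs, and Epx, Prg3 and Il5ra had no row in any table. Their summed level was 9.74 to 38.4 RPKM in TRMs and 9.55 to 30.3 RPKM in MDMs. Of the 2 tested, Ear6 was higher in KLG4 TRMs than in KLG4 MDMs (1.55, adjusted p = 0.021) and Alox15, a lipoxygenase listed at 0 in both KL TRM libraries, was lower in KL TRMs (adjusted p = 0.037). Their part in the Ear1, Ear2 and Siglecf values was not tested.

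Plet1, a surface protein known from epithelial progenitors, was at 120.1 and 116 RPKM in KL TRMs and 134 and 142 RPKM in KLG4 TRMs. MDMs held 11.3 and 25.6 RPKM in KL and 10.1 and 11.4 RPKM in KLG4, and the log2 fold changes were 2.79 (SE 0.34, adjusted p = 8.8e-04) and 3.68 (SE 0.34, adjusted p = 3.4e-04). Krt79, a type II keratin, was the lowest of the 10 in MDMs, at 0.771 and 3.31 RPKM in KL and 0.329 and 0.953 RPKM in KLG4, against 6.53 and 6.36 RPKM in KL TRMs and 5.84 and 11.7 RPKM in KLG4 TRMs. TRMs and MDMs did not overlap, yet the KL difference of 1.93 (SE 0.69) missed the threshold with an adjusted p of 0.059, and it passed under 7 alternatives, among them a pseudocount of 1 (1.43), quantile scaling (2.03), limma-voom (2.17) and leaving out KL MDM replicate 2 (2.91, adjusted p = 0.0074). In KLG4 it was 3.64 (SE 0.69, adjusted p = 0.0045). Among MDMs only KL replicate 2 reached 1 RPKM, so Krt79 passed the filter through the TRM libraries, where it is high. Its KLG4 call therefore carries no weight as a count. A filter at a mean of 5 RPKM left Krt79 out, and 9 of 9 genes were then called in KL and 8 of 9 in KLG4.

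**Figure D2:**
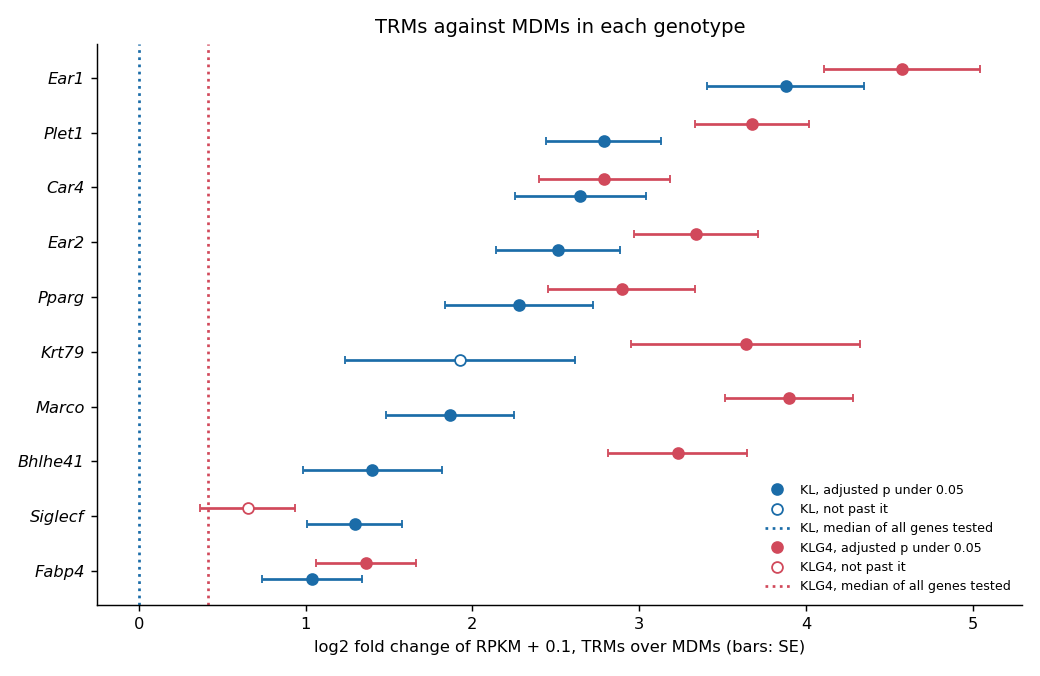
Log2 fold change of TRMs over MDMs for each of the 10 genes, in KL (blue) and KLG4 (red), with bars of 1 SE. Filled points passed an adjusted p of 0.05 and dotted lines are the medians of all genes tested. Krt79 in KL (1.93) and Siglecf in KLG4 (0.65) are the open points, and Ear1 lies farthest to the right in both genotypes.

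Related genes moved in the same comparison. Of 14 other alveolar macrophage genes, 12 were higher in TRMs in KL and 13 in KLG4, with 0 lower (medians 2.04 and 2.97 on the log2 scale). Fabp1, a fatty acid carrier, differed by 3.58 and 3.70, and Siglec1, another sialic acid-binding lectin, by 3.31 and 4.57. Of 13 tested PPARg lipid targets, 12 were higher in KL and 13 in KLG4, with 0 lower. Angptl4, a lipase inhibitor, differed by 2.78 and 3.66, and Lpl, lipoprotein lipase, by 2.55 and 3.59. The upstream inputs were split. Of 12 tested genes of GM-CSF, TGF-beta and PPARg signalling, 2 were higher and 5 lower in KL, and 3 were higher and 1 lower in KLG4. Tgfbr2, a TGF-beta receptor, was higher by 1.39 and 1.83, while Csf2rb, the common beta chain of the GM-CSF receptor, was lower in KL (-1.59). Bhlhe40, the partner of Bhlhe41, did not pass in either genotype (-0.29 and -0.25).

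Of 12 tested genes in a list of markers of monocyte-derived or interstitial macrophages, 1 was higher and 4 lower in KL TRMs, and 2 were higher and 2 lower in KLG4 TRMs. Itgam, an integrin of recruited myeloid cells, was lower by a log2 fold change of -5.06 in KL and -4.39 in KLG4, and Mertk, a receptor for dying cells, was higher by 2.26 and 3.81. Neutrophil markers moved most. All 8 that were tested were lower in TRMs in both genotypes, with medians of -6.06 and -6.37, and S100a9 was at 9379 to 21106 RPKM in the 4 MDM libraries against 61.9 to 191 RPKM in the 4 TRM libraries. The summed level of the neutrophil markers was 10745 to 23751 RPKM in MDMs and 92.1 to 240.2 RPKM in TRMs. In bulk libraries, fewer cells of a type and less RNA per cell cannot be told apart, and the part of neutrophil RNA in the lower MDM level of the 9 genes called in each genotype was not tested. Csf1r, the CSF1 receptor of macrophages as a class, was lower in KL TRMs (-0.90, adjusted p = 0.025) and did not pass in KLG4 (0.07). MDM libraries held 24.3 to 41.2 RPKM of it and TRM libraries 15.7 to 47.3 RPKM.

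The next comparison asked whether the program differed between KLG4 and KL within TRMs. Of the 10 genes 1, Marco, was higher in KLG4 TRMs, and 1.36% of 10990 genes tested were higher there. That background of 150 genes became 8 under TMM scaling, 23 under quantile scaling, 9 without the trend and 2487 without KL TRM replicate 2. Marco was at 396 and 641 RPKM in KLG4 and at 156 and 135 RPKM in KL, which is a mean of 519 ± 173 against 146 ± 15.1 RPKM (SD, n = 2) without overlap. The log2 fold change was 1.79 (SE 0.25, adjusted p = 0.044), or 1.41 above the median of all genes. The call was lost under TMM scaling (1.40, adjusted p = 0.12), under 3 other scalings, without the mean-variance trend and without KL TRM replicate 1. Mitochondrial share and sex of the libraries moved with genotype here, and their part in the result was not tested beyond these scalings.

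The remaining 9 genes did not pass in TRMs. Bhlhe41 (1.08, SE 0.33, adjusted p = 0.11) and Fabp4 (0.77, SE 0.30, adjusted p = 0.17) had both KLG4 libraries above both KL libraries, and so did Car4 (0.31) and Plet1 (0.23). Ear1 (-0.52, SE 0.20, adjusted p = 0.16) and Ear2 (-0.13) had both KLG4 libraries below. Over all genes tested, 53.7% lay above in this way and 8.95% below. Pparg was at 32.6 ± 4.82 RPKM in KLG4 and 32.7 ± 2.85 RPKM in KL (-0.01 on the log2 scale), and its 95% interval ran from -0.47 to 0.46. Siglecf differed by -0.06, with an interval from -0.58 to 0.47, and Krt79 by 0.35. The signs of Car4, Plet1 and Krt79 turned negative under TMM scaling, and that of Ear2 turned positive under quantile scaling. Of the 14 other alveolar macrophage genes, 4 were higher in KLG4 TRMs, where 1.36% of all genes tested were higher and the median was 0.38. Among them were Itgax, an integrin of alveolar macrophages, by 1.502 (adjusted p = 0.035, limma), and Chil3, a chitinase-like protein, by 1.17 (adjusted p = 0.047). These calls lie near the threshold, and over all genes the higher calls fell from 150 to 8 under TMM scaling. Of 13 tested PPARg targets, 0 passed in either direction. Csf1r, the CSF1 receptor of macrophages, was higher in KLG4 TRMs by 1.38 (adjusted p = 0.047, limma). Of 9 tested markers of AT2 cells, the surfactant-making epithelium, 2 were lower in KLG4 TRMs.

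In MDMs 0 of 9 tested genes passed, as did 0% of 10475 genes by limma, although 706 genes had an unadjusted p under 0.05. Krt79 missed the filter on low values. The smallest adjusted p among the 9 was 0.68. KL replicate 2 was higher than KL replicate 1 for 9 of 10 genes. Pparg at 11.2 against 3.94 RPKM, Ear1 at 12.8 against 4.13 RPKM and Krt79 at 3.31 against 0.771 RPKM show the gap, while the KLG4 pairs were 3.60 and 5.07, 2.63 and 3.58, and 0.329 and 0.953 RPKM. Without KL replicate 1, 5 genes were lower in KLG4 MDMs (Pparg, Ear1, Ear2, Plet1 and Bhlhe41), with log2 fold changes of -1.25 to -2.03, but 13.5% of all genes tested were lower in that fit. Without KL replicate 2, 0 passed by limma. Ear1 (-1.22) and Ear2 (-0.96) had the most negative values with all 4 libraries, and both KLG4 libraries lay below both KL libraries for these 2 and for Bhlhe41 (-0.75), as for 19.1% of all genes tested. Siglecf (0.59) and Fabp4 (0.44) had both KLG4 libraries above both KL libraries, as had 25.4% of all genes tested.

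The difference of the genotype effect between TRMs and MDMs was tested in 1 fit over the 8 macrophage libraries. It passed for 0 of 10 genes, as for 0% of all genes tested by limma, although 1309 genes had an unadjusted p under 0.05. Marco had the largest value, 2.03 (SE 0.54, unadjusted p = 0.0057, adjusted p = 0.33), followed by Bhlhe41 with 1.83 (SE 0.59, unadjusted p = 0.014, adjusted p = 0.36). The 10 genes had a median of 0.76, beside 0.45 for all genes tested. Under TMM scaling these medians were 0.35 and 0.042. They were 0.24 and 0.34 without KL MDM replicate 2, and 1.46 and 0.55 without KL MDM replicate 1. Without KL MDM replicate 1, 4 genes passed with positive values (Ear1, Ear2, Plet1 and Bhlhe41), in a fit where 8.35% of all genes tested did so.

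**Figure D3:**
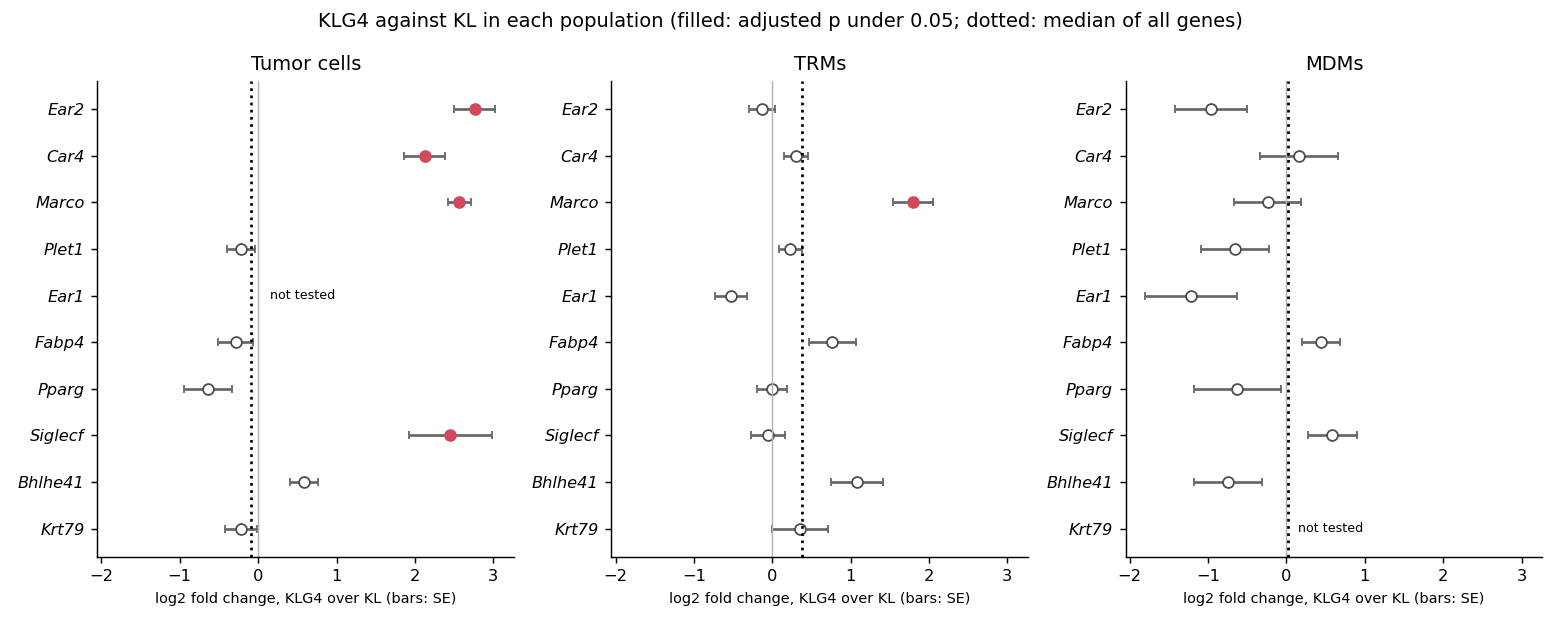
Log2 fold change of KLG4 over KL for each of the 10 genes in tumor cells, TRMs and MDMs, with bars of 1 SE. Filled points passed an adjusted p of 0.05 and dotted lines are the medians of all genes tested. Ear2, Marco, Siglecf and Car4 passed in tumor cells, Marco alone passed in TRMs, and no point passed in MDMs.

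In tumor cells, gated as CD45-, CD31- and EpCAM+, 4 of 9 tested genes were higher in KLG4, and 20.6% of 13770 genes tested were higher there. Ear2 was at 132 RPKM in both KLG4 libraries, and the KL libraries held 14.7 and 25.5 RPKM. On the log2 scale the difference was 2.76 (SE 0.26, adjusted p = 0.0011). Marco was at 17.2 and 17.9 RPKM in KLG4 and at 2.72 and 3.04 RPKM in KL (2.57, SE 0.15, adjusted p = 3.3e-04). KLG4 and KL libraries were well apart for both genes. Car4 was at 31.8 and 38.6 RPKM in KLG4 against 6.17 and 10.2 RPKM in KL (2.13, SE 0.26, adjusted p = 0.0027). Siglecf was at 2.88 and 1.55 RPKM against 0.157 and 0.545 RPKM (2.45, SE 0.53, adjusted p = 0.017), and its lowest library held 16 reads. Siglecf passed the filter on low values only through the KLG4 libraries, where it is high, so its call carries no weight as a count, and 3 of the other 8 genes were called. It was not tested when either KLG4 library was left out, because it then missed the filter.

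The other 5 genes did not pass in tumor cells. Bhlhe41 was at 3.48 and 3.39 RPKM in KLG4 and at 2.41 and 2.12 RPKM in KL (0.59, SE 0.18, adjusted p = 0.0501), and it passed under 7 alternatives, among them TMM scaling (0.65, adjusted p = 0.040). Pparg was at 3.63 and 4.08 RPKM in KLG4 and at 8.18 and 4.49 RPKM in KL (-0.64, SE 0.30, adjusted p = 0.15). Plet1 (-0.22), Krt79 (-0.22) and Fabp4 (-0.29) had values within 1.89 to 27.5 RPKM. Without KL replicate 2, which was the lower KL library for these 3 and for Pparg, 3 genes were lower in KLG4, Pparg (-1.07), Fabp4 (-0.56) and Plet1 (-0.42), and 7 of 9 passed in all. In that fit 54.3% of all genes tested passed, and 24.9% were lower in KLG4.

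These levels were small beside those of TRMs, which stand in a separately made table. The KLG4 tumor cell mean was 3.14% of the KLG4 TRM mean for Ear2, 3.38% for Marco, 6.18% for Car4 and 10.6% for Siglecf, whereas in KL the shares were 0.436%, 1.98%, 1.78% and 1.63%. The 5 genes that did not pass had KL shares of 11.9% to 37.3%. Of 13 tested other alveolar macrophage genes, 10 were higher in KLG4 tumor cells. Those 10 stood at 2.79% to 38.4% (Cidec) of the TRM level in KLG4 and at 0.452% to 3.31% in KL. In the KL libraries 9 and 11 of the 14 listed genes reached 1 RPKM. Some of the 13 thus depended on the KLG4 libraries to pass the filter, and the count is partly set by it. Chil3 rose from 9.76 and 17.8 RPKM in KL tumor cells to 191 and 193 RPKM in KLG4. Krt19, the gene of that list that was lower (-0.97), is a keratin that epithelial tumor cells make themselves.

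**Figure D4:**
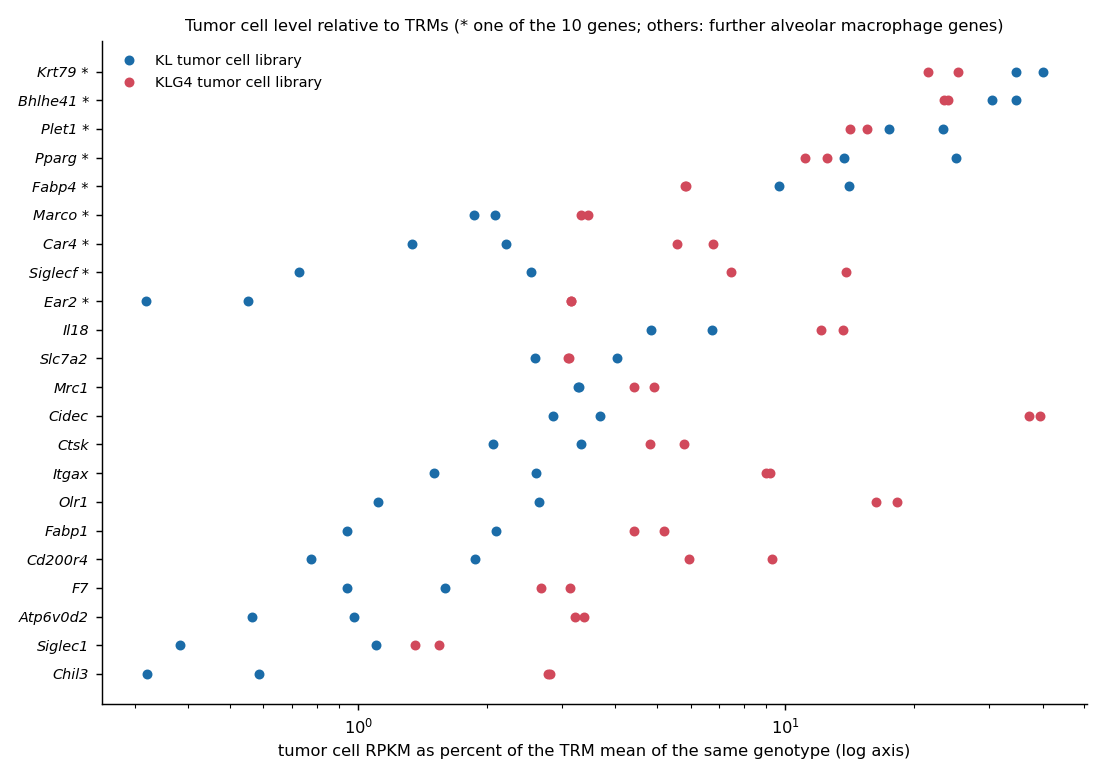
RPKM in each tumor cell library as a percent of the TRM mean of the same genotype, on a log axis, for 9 of the 10 genes (marked with a star) and 13 further alveolar macrophage genes. Krt19, far above its TRM level in tumor cells, is left out. For Ear2 the KLG4 libraries lie at 3.14% and the KL libraries at 0.319% and 0.553%. For the 5 starred genes at the top, which did not pass the test, the KLG4 libraries lie to the left of the KL libraries. This position also depends on the TRM mean. Bhlhe41 was at 3.48 and 3.39 RPKM in KLG4 tumor cells against 2.41 and 2.12 RPKM in KL. Its TRM mean was 14.5 RPKM in KLG4 and 6.94 RPKM in KL.

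Markers of leukocytes rose in the same libraries. All 10 leukocyte markers were higher in KLG4 tumor cells, with a log2 median of 3.51, and Ptprc, the gene of CD45, which the gate excludes, was higher by 4.25. Summed over the list, KLG4 libraries held 271 and 279 RPKM, and KL libraries held 25.9 and 36.0 RPKM. All 11 tested markers of monocyte-derived or interstitial macrophages were higher as well, with a median of 2.93. So were 8 of 9 neutrophil markers, with a median of 3.22. In the KL libraries 6 and 8 leukocyte, 5 and 6 macrophage and 6 and 7 neutrophil markers reached 1 RPKM. Markers below that depended on the KLG4 libraries, where they are high, to pass the filter, so these counts are partly set by it. Capillary endothelial markers, which bear on Car4, were higher for 4 of 7 tested, and their summed level was 19.6 and 20.3 RPKM in KLG4 against 13.4 and 7.30 RPKM in KL. AT2 markers were lower for 9 of 10. Of 8 club and other epithelial markers 3 were higher and 5 lower, among them Epcam, the gate marker, which was lower by a log2 fold change of -1.28 (adjusted p = 0.0073), and the club cell genes Scgb1a1 (0.88) and Cyp2f2 (1.41), which were higher. Of the eosinophil markers, which bear on Ear2 and Siglecf, 2 had a row. Prg2, a granule protein and the 1 tested, was at 4.73 and 3.22 RPKM in KLG4 against a listed 0 in both KL libraries. It passed the filter on low values only through the KLG4 libraries, where it is high. Its call (adjusted p = 3.1e-04, limma) therefore carries no weight. Markers of T cells (7 of 7 tested, median 4.35) and of B and plasma cells (7 of 7, median 4.79) were higher too. Those of dendritic cells (5 of 5, median 3.30) and fibroblasts (7 of 8, median 4.04) were as well. In the KL libraries 0 and 2 T cell, 1 and 2 B and plasma cell and 0 and 0 dendritic cell markers reached 1 RPKM. Of the fibroblast markers 5 and 5 did so, and of the capillary endothelial markers 6 and 2. Nearly all T, B and dendritic cell markers thus depended on the KLG4 libraries, where they are high, to pass the filter. Their counts therefore carry no weight. The part of these other cells in the higher Ear2, Marco, Car4 and Siglecf values was not tested. Of the PPARg targets, 7 of 14 were higher and 3 lower in KLG4 tumor cells. Csf2ra and Csf2rb, the GM-CSF receptor chains, were higher by 2.82 and 3.73.

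Upstream windows were searched because 9 of the 10 genes were higher in TRMs in each genotype. RefSeq promoters covered 9 of the 10 genes in 11 windows of 250 bases before the start (GRCm38.p6), and both strands were read. The letters GAGGAAG, a core of sites of the myeloid factor PU.1, occurred before 2 of the 9 genes, Marco and Siglecf, and in 10.6% of all 32851 windows. Capitals mark the match in each window, which is CTTCCTC for Siglecf since it lies on the opposite strand.
Marco upstream, chr1:120505025-120505274, minus strand: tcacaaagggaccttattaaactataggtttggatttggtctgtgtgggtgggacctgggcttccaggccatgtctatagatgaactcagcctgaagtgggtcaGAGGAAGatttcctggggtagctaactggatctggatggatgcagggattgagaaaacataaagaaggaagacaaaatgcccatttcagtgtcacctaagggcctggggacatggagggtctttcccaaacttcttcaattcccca
Siglecf upstream, chr7:43351091-43351340, plus strand: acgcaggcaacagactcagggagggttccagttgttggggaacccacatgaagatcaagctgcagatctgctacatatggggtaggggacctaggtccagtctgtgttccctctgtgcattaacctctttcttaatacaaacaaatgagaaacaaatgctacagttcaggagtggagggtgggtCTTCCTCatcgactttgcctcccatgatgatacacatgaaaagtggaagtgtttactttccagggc
The letters AGGTCA, a core of nuclear receptor sites, occurred before 2 of the 9 genes, Pparg and Plet1, and in 14.0% of all windows, and the direct repeat AGGTCANAGGTCA occurred in 0 of the 11 windows and in 0.033% of all. TTGCNNAA, a C/EBP-type core, occurred before 4 of the 9 (Ear1, Ear2, Plet1 and Pparg) and in 9.56% of all windows. The remaining letters searched were CACGTG (1 of 9, Bhlhe41, and 6.02% of windows), TGANTCA (1 of 9, Plet1, and 6.75%) and TATAAA (2 of 9, Plet1 and Pparg, and 12.4%). The percentages count windows rather than genes. Of the 11 member windows, 2 held GAGGAAG, 3 held AGGTCA and 4 held TTGCNNAA. CACGTG and TGANTCA each stood in 1 of them, and TATAAA in 2. Ear1 and Ear2 hold the same C/EBP-type match in windows 99.2% identical over 248 bases, so they are not separate cases. A match describes the letters in this window only.

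Over the 8 macrophage libraries, each member was correlated with the mean log2 level of the other 9. Pearson's r was highest for Plet1 (0.99) and Pparg (0.99) and lowest for Fabp4 (0.82) and Siglecf (0.84). The TRM and MDM libraries form separate clusters on this scale, with mean log2 levels of 6.17 to 6.69 in TRMs and 3.32 to 4.55 in MDMs, so these values describe the step between the populations. The genes most like the mean of the 10 among 6947 compared were Tmem184c, Plxdc2, Ucp3, Utp6, Galk2, Frmd4a, Colec12, Vps41, Cdc123 and Sec11a, with r of 0.994 to 0.999 over 8 libraries. Colec12, a scavenger receptor of the collectin family, had the highest level of them, with means of 59.1 RPKM in KL TRMs, 83.0 in KLG4 TRMs, 10.5 in KL MDMs and 6.01 in KLG4 MDMs.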

How the data were processed

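Poly(A) RNA was sequenced as 150-base pairs from a kit that does not keep strand. Per the labels and methods, reads were trimmed (Trim Galore 0.6.4), aligned (HISAT2 2.0.5, Ensembl mouse annotation) and counted per gene (featureCounts 2.0.0, default settings), and the authors deposited RPKM values. The deposited tables also hold the authors' own fold changes and p-values, which were not used. Read numbers were recovered from gene lengths, and at least 99.99% of low values came out whole within 0.05.

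From there, log2(RPKM + 0.1) was tested with limma 3.58.1 (R 4.3.3, moderated with a mean-variance trend, two-sided, no covariate) on genes that reached 1 RPKM in 2 or more libraries, with Benjamini-Hochberg adjustment over all genes tested and a threshold of 0.05. KLG4 was compared with KL within each table. TRMs and MDMs were compared in 1 fit over 8 libraries and the genes in both tables, since RPKM is scaled per library. That scaling does not remove differences in composition, such as a mitochondrial share of 0.494% to 13.2% of reads in these libraries. Fold changes on this scale understate the change of low genes. The scripts were tested on simulated data.

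The members and gene lists were chosen with earlier results of these data known. All 10 members were named, and from each other list at most the 3 largest changes per direction among called genes with a group mean of at least 5 RPKM, plus markers beside a member. Chil3 in TRMs, Bhlhe40, and Csf1r in TRMs against MDMs were named after their values were seen. Alternatives covered the pseudocount, the filter, scaling, the trend, voom on recovered reads, the replicate block and leaving out each library. Rescaling to reads outside mitochondrial genes and their 9 near-identical nuclear transcripts was chosen after seeing the data. Intervals cover the spread between libraries only. A result of 1 gene of the marker lists is not reported here.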

Additional observations from a re-analysis of the deposited data

Results flagged for a closer look

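The difference between KLG4 and KL had opposite signs in different populations for 3 of the 10 genes, with both KLG4 libraries on one side of both KL libraries in each population named. That is 3 of the 9 genes with values in tumor cells, beside 28.8% of all genes tested in tumor cells and a macrophage population, so the share is near that of all genes. Fabp4 had a log2 fold change of -0.29 in tumor cells, 0.77 in TRMs and 0.44 in MDMs. Ear2 had 2.76 in tumor cells, -0.13 in TRMs and -0.96 in MDMs. Bhlhe41 had 0.59 in tumor cells, 1.08 in TRMs and -0.75 in MDMs. Of these values, Ear2 in tumor cells passed the test in its own population. The differences between tumor cells and macrophages were not tested, and that of Bhlhe41 between TRMs and MDMs missed the threshold (1.83, adjusted p = 0.36, limma).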

How the results depend on the processing

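Of the 10 genes, the number called between KLG4 and KL TRMs was 1 and became 0 under quantile scaling, TMM scaling, both rescalings outside mitochondrial genes (with and without their nuclear copies) and without the trend, and 2 under limma-voom (Marco higher, Ear2 lower). Some differences changed sign, all of which missed the threshold in the reported fit. In TRMs, Car4 was -0.085 under TMM, -0.084 with mitochondrial genes and copies set aside and -0.083 under voom, Plet1 was -0.16, -0.16 and -0.17 in the same order, Krt79 was -0.033, -0.032 and -0.19 and also -0.037 under quantile scaling, and Ear2 was 0.66 under quantile scaling. For the genotype difference in TRMs minus that in MDMs, Car4 was -0.27, -0.19 and -0.30 and Fabp4 -0.094, -0.0082 and -0.0997 in that order. Leaving out each library gave 3 to 7 called genes in tumor cells, 0 to 2 in TRMs, 0 to 5 in MDMs, 0 to 4 for the difference of differences, 7 to 10 for TRMs against MDMs in KL and 8 to 10 in KLG4. Signs turned within these ranges without 1 library: in TRMs Pparg -0.16 to 0.14, Siglecf -0.25 to 0.14 and Krt79 -0.14 to 0.85, in MDMs Pparg -1.36 to 0.11, Car4 -0.49 to 0.81 and Marco -0.82 to 0.34, and for the difference of differences Pparg -0.12 to 1.36, Car4 -0.50 to 0.79, Fabp4 -0.11 to 0.75 and Ear1 -0.11 to 1.502. The cause was not tested. A lone library left in a group is assumed to vary like the other groups. Same-numbered samples did not pair (correlations of -0.060 to 0.20 between their deviations), and with the replicate block 4, 1, 0, 10, 9 and 0 genes were called in tumor cells, TRMs, MDMs, TRMs against MDMs in KL and KLG4, and the difference of differences. The block raised Krt79 in KL past the threshold (1.93, adjusted p = 0.035) and changed no other call among the 10 genes. Over all genes it gave 470 calls in TRMs against 198 without it. Ear1 had no length in the tables and was not part of the voom fits. The lowest member value, Siglecf in KL tumor cells, rests on 16 reads.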
